A study of Mus musculus with 16 samples.

Results

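The RNAs described here are those whose symbol in the deposited table begins with *Vps*, *Snx* or *Chmp* followed by a digit. This rule took 65 of the 12900 RNAs and used names only, no measured value. They encode vacuolar protein sorting (Vps) subunits, sorting nexins (Snx) and charged multivesicular body proteins (Chmp). These names cover retromer, the SNX-BAR and other sorting nexins, the HOPS, CORVET and GARP tethers, and the ESCRT complexes with their Vps4 ATPases. Of 73 such mouse genes listed by role, the table held 65. It did not list *Snx20*, *Snx22*, *Snx31*, *Snx32*, *Vps28*, *Vps50*, *Chmp1b* or *Chmp4c* under these symbols, and it carried *Vps50* under the older symbol *Ccdc132*, which is described with the other pathway genes.

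RNA was measured by RNA-Seq in protrusions (Ps) and cell bodies (CB) of NIH/3T3 cells, an established mouse fibroblast line. The control line (HBB) stably expressed human β-globin RNA with its own 3′UTR, and the Pkp4 cUTR line expressed the same coding sequence joined to the mouse *Pkp4* 3′UTR. Both carried their construct by lentiviral transduction and drug selection, and all 4 groups received doxycycline at 1 μg/ml for 3 days, so no group was uninduced. Serum-starved cells were plated for 2 h on porous filters (3 μm pores), with LPA beneath the filter for 1 h, and both sides were collected after 10 min in 0.3% paraformaldehyde. Each group, HBB CB, HBB Ps, Pkp4 cUTR CB and Pkp4 cUTR Ps, held 4 samples. Each construct was carried by 1 line, so an effect of the construct and a difference between lines cannot be told apart.

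Endosomes sort the membrane proteins that reach them. Retromer, assembled from Vps35, Vps29 and a Vps26 subunit, works with sorting nexins to return cargo to the cell surface or the Golgi, and the sorting nexins bind phosphoinositides through their PX domains, some of them bending membrane with a BAR domain. ESCRT complexes gather ubiquitinated cargo into vesicles that bud into the endosome and are then degraded in lysosomes, and ESCRT-III filaments with the Vps4 ATPases also cut membranes in cell division and repair. HOPS and CORVET tether endosomes before they fuse, and GARP tethers carriers that arrive at the Golgi. In migrating fibroblasts this machinery recycles integrins and growth factor receptors.

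All values are log2 CPM as deposited, where CPM is the reads of a gene per 1000000 reads of a scaled library. The libraries held 18660287 to 31260831 reads on these genes, and a member had at least 10 reads in every sample. Of the 65 members, 63 had a mean log2 CPM above 1. Each library is divided by the authors' scaled size and not by its own total. That size was 1.07 to 1.11 times the reads of a library in CB and 0.83 to 0.97 times in Ps. Compared with scaling by total reads, this raises Ps values against CB values. A value is thus relative to the other RNAs of its library, and RNA per cell and the amount of material collected cannot be told apart. *Pkp4*, whose 3′UTR the construct carries, averaged 4.47 and 6.01 log2 CPM in CB and Ps of the HBB line, and 8.91 and 9.33 in those of the Pkp4 cUTR line, in the direction of the labels. Of 6 fibroblast markers 5 were in the table, *Thy1* was not, and their summed level was 16288 to 22727 CPM. It was lower in Ps (16288 to 16495 CPM in HBB, 17531 to 19387 in Pkp4 cUTR) than in CB (19550 to 21734 and 19614 to 22727), and the part of this in the results was not tested. Of 7 markers of epithelial, blood, endothelial and neuronal cells 4 were in the table, summing to 17.7 to 26.2 CPM, while *Epcam*, *Krt18* and *Ptprc* were not. Same-numbered CB samples of the lines deviated together most for number 4 (Pearson's r = 0.628 across RNAs), and the leading counts are also given without both of these samples.

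The first comparison asked which of these RNAs differed between Ps and CB, in each line. The endosomal sorting RNAs did not move as 1 block. In HBB cells 20 of the 65 members (30.8%) were higher in Ps than in CB at an adjusted p under 0.05, against 28.3% of all RNAs, and 20 (30.8%) were lower, against 28.9%. Among Pkp4 cUTR samples 20 (30.8%) were higher, against 28.2% of all RNAs, and 18 (27.7%) were lower, against 28.5%. Adjusted p-values are from limma with the Benjamini-Hochberg adjustment over all 12900 RNAs. The members' shares are near those of all RNAs, so the counts say nothing particular of these genes, and what follows is about which of them lay on which side. The median log2(FC), Ps over CB, of the members was 0.05 in HBB and −0.05 in Pkp4 cUTR cells, against 0.01 and 0.01 over all RNAs. The median size of the change was 0.34 and 0.32, against 0.39 and 0.38.

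Across the lines, 18 members (27.7%) were higher in Ps of both, against 24.1% of all RNAs, and 16 (24.6%) were lower in both, against 25.3%. The 18 make up 90% of the 20 members higher in HBB and 90% of the 20 higher in Pkp4 cUTR cells. The 16 make up 80% of the 20 lower in HBB and 88.9% of the 18 lower in Pkp4 cUTR cells. A further 10 members were called in 1 line only, 21 in neither, and 0 in opposite directions. The lines were separate samples, and log2(FC) had the same sign in both for 58 members (89.2%), against 90.7% of all RNAs. Same-numbered samples of the lines deviated in common (r from 0.331 to 0.628 in CB and 0.196 to 0.392 in Ps), so the lines are not fully independent. Without both CB samples numbered 4, 18 members were higher and 18 lower in both lines, and of those named only *Vps26b* was lost.

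**Figure D1:**
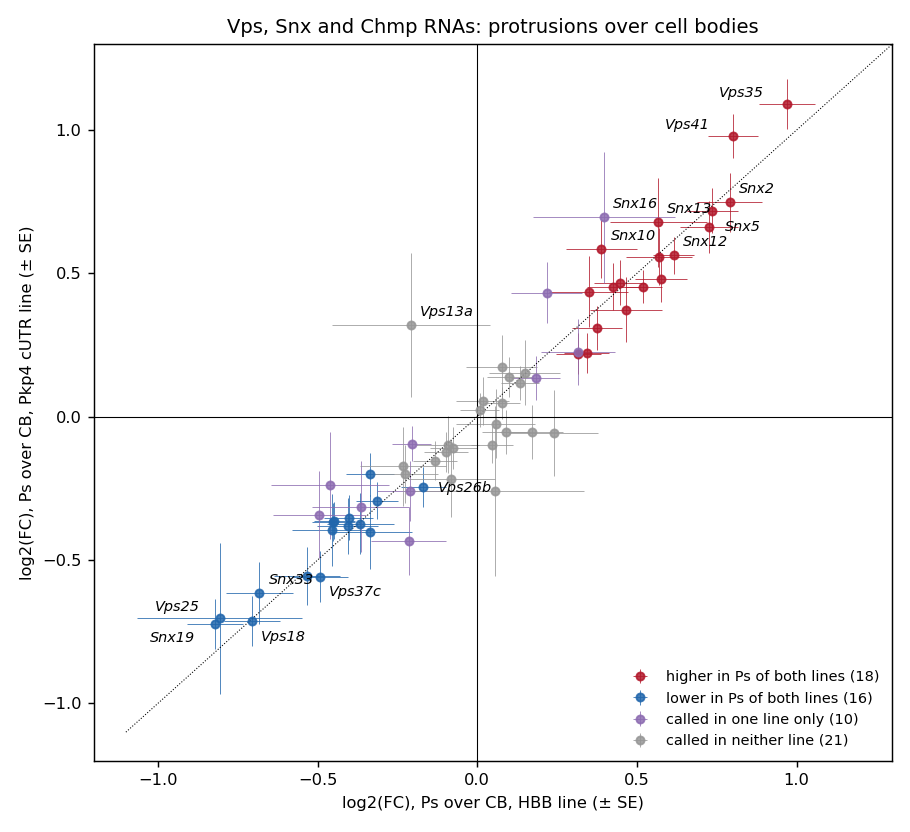
Each point is 1 of the 65 members, with log2(FC) of Ps over CB in the HBB line on the horizontal axis and in the Pkp4 cUTR line on the vertical axis, bars of 1 SE, and a dotted line of equal values. The 18 members higher in Ps of both lines lie at the upper right, led by *Vps35* (0.97 and 1.09) and *Vps41* (0.80 and 0.98), and the 16 lower in both lie at the lower left.

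Changes were modest. The threshold of a more than 2-fold increase at an unadjusted p under 0.05 was reached by 0 members in HBB cells (4.54% of all RNAs) and by 1 in Pkp4 cUTR cells (5.07%), which was *Vps35* at 2.13-fold. A fold change under 1/2 was reached by 0 members in either line, against 4% and 2.92% of all RNAs. The scaling of the libraries bears on every count. When libraries were scaled by total reads in place of the authors' scaled sizes, the median log2(FC) of all RNAs moved to −0.23 and −0.25. With that scaling 10 members were higher and 32 lower in HBB cells, and 12 and 35 in Pkp4 cUTR cells, so that 23.8% of the members called in HBB were higher, against 25.7% of all RNAs called. Directions below are relative to the bulk of RNAs. Of the 18 members higher in both lines 10 remained so with this scaling, and *Snx3*, *Snx4*, *Snx10*, *Snx13*, *Vps26a*, *Vps29*, *Vps37a* and *Chmp2a* lost the call in at least 1 line. All 16 lower in both remained lower. Of the 10 members called in 1 line only, *Chmp6* and *Vps4b* in HBB and *Snx16* and *Vps54* in Pkp4 cUTR cells lost the call with this scaling, and 6 of the 10 (*Chmp6*, *Snx16*, *Snx27*, *Vps4b*, *Vps13c* and *Vps33b*) lost it when at least 1 single sample was left out.

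In retromer, 3 of the 4 core subunits were higher in Ps of both lines, against 24.1% of all RNAs. The other, *Vps26b*, was lower in both. *Vps35* (chromosome 8, 85260392 to 85299802, all positions on GRCm38), the scaffold on which the other subunits assemble, showed the largest change of all members. In HBB cells *Vps35* measured 4.68, 4.44, 4.38 and 4.28 log2 CPM in CB and 5.35, 5.54, 5.33 and 5.45 in Ps. In Pkp4 cUTR samples it measured 4.44, 4.33, 4.36 and 4.66 in CB and 5.51, 5.60, 5.51 and 5.52 in Ps. All Ps samples lay above all CB samples in each line. Its log2(FC) was 0.97 ± 0.09 (SE) in HBB cells, with an adjusted p of 7.87e-08, and 1.09 ± 0.09 in Pkp4 cUTR cells, with 3.96e-08.

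*Vps26a* and *Vps26b* encode the alternative arrestin-like subunits, of which a retromer holds one or the other. *Vps26a* had 5.11, 5.09, 5.10 and 5.12 log2 CPM in CB of HBB cells and 5.44, 5.68, 5.44 and 5.56 in their Ps. The Pkp4 cUTR samples had 5.04, 5.05, 5.29 and 5.40 in CB and 5.55, 5.64, 5.65 and 5.74 in Ps. Ps lay above CB without overlap in both lines, and log2(FC) of *Vps26a* (chromosome 10, 62455235 to 62486805) was 0.42 ± 0.08 in HBB (adjusted p = 0.000256) and 0.45 ± 0.08 in Pkp4 cUTR cells (adjusted p = 0.000149). The 4 HBB CB samples of *Vps26b* were at 6.14, 6.32, 6.29 and 6.25 log2 CPM and the Ps samples at 6.08, 6.02, 6.10 and 6.12. Those of the Pkp4 cUTR line were at 6.30, 6.50, 6.37 and 6.27 in CB and 6.18, 6.06, 6.0 and 6.21 in Ps. Here Ps lay below CB without overlap in both lines. *Vps26b* (chromosome 9, 27007771 to 27030065) had a log2(FC) of −0.17 ± 0.07 in HBB cells (adjusted p = 0.0447) and −0.25 ± 0.07 in Pkp4 cUTR cells (adjusted p = 0.00577). The HBB call of *Vps26b* was near the threshold. It was lost with median centring, with quantile normalization and without any of 9 single samples, among them HBB CB replicates 2, 3 and 4 and each HBB Ps sample (adjusted p from 0.0512 to 0.121). The call of *Vps26a* was lost with libraries scaled by total reads, at 0.19 in each line.

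*Vps29* encodes the small subunit at the far end of Vps35. Levels of *Vps29* were 5.66, 5.80, 5.79 and 5.86 log2 CPM in HBB CB and 6.07, 6.06, 6.28 and 6.06 in HBB Ps. For the Pkp4 cUTR line they were 5.84, 5.79, 5.86 and 5.92 in CB and 6.09, 5.95, 6.15 and 6.10 in Ps. Ps samples were above CB samples throughout, and HBB Ps replicate 3 stood above the rest of its group. The log2(FC) of *Vps29* (chromosome 5, 122354369 to 122364984) was 0.34 ± 0.07 in HBB (adjusted p = 0.000431) and 0.22 ± 0.07 in Pkp4 cUTR cells (adjusted p = 0.0121). With libraries scaled by total reads these were 0.11 and −0.04, so that the sign turned in the Pkp4 cUTR line and neither was called.

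**Figure D2:**
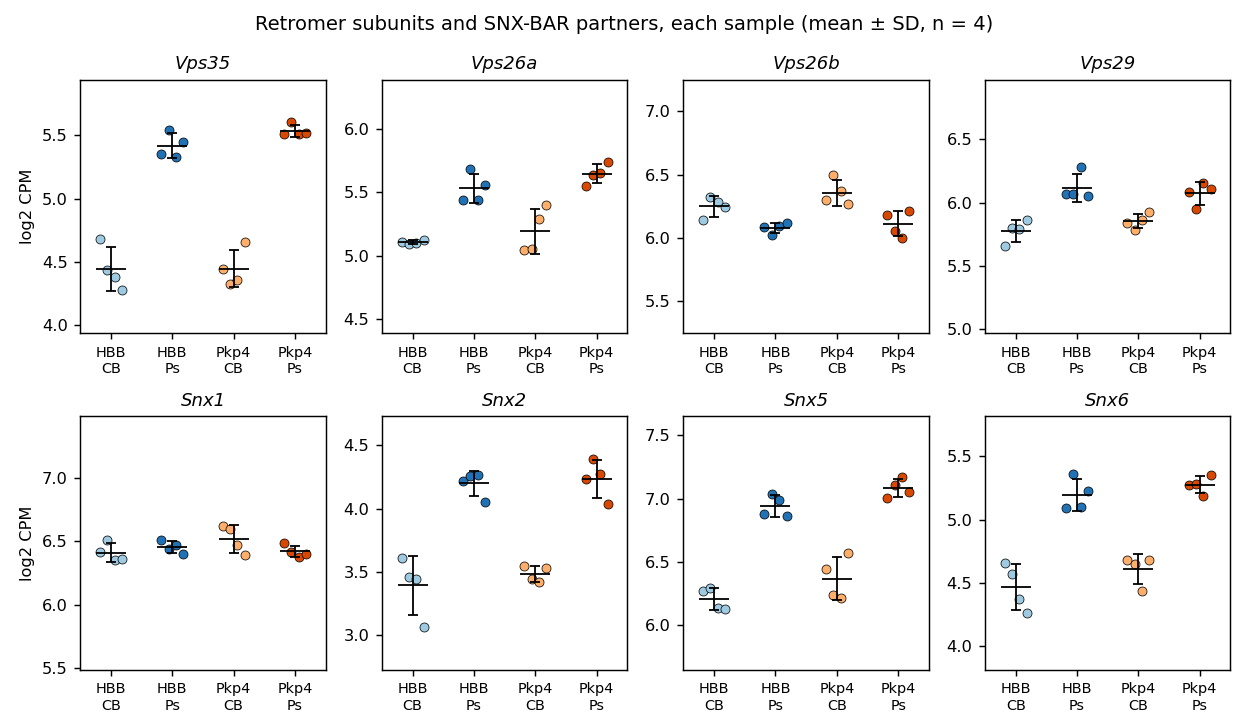
Log2 CPM of the retromer subunits (top) and of the SNX-BAR proteins that work with them (bottom) in each of the 16 samples, with the mean and SD of the 4 samples of a group, each panel spanning 2 log2 units. *Vps35*, *Snx2*, *Snx5* and *Snx6* stood higher in Ps of both lines, *Vps26b* stood lower, and *Snx1* had overlapping groups.

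Among the 11 measured SNX-BAR proteins, 4 were higher in Ps of both lines (*Snx2*, *Snx4*, *Snx5* and *Snx6*), against 24.1% of all RNAs. Another 3 were lower in both (*Snx18*, *Snx30* and *Snx33*), against 25.3%. *Snx9*, which acts in endocytosis, was lower in Pkp4 cUTR cells only (−0.43 ± 0.12, adjusted p = 0.00436), and *Snx1*, *Snx7* and *Snx8* were called in neither line. With libraries scaled by total reads *Snx4* had 0.14 and 0.04 and was called in neither line. *Snx7* was called lower in Pkp4 cUTR cells with this scaling (−0.32, adjusted p = 0.0226). It was also called lower there with a correction for transcript GC content (−0.25, adjusted p = 0.0294). Snx1 or Snx2 pairs with Snx5 or Snx6 in the coats of endosomal tubules. In HBB cells *Snx2* measured 3.61, 3.46, 3.45 and 3.07 log2 CPM in CB and 4.22, 4.26, 4.27 and 4.05 in Ps. In Pkp4 cUTR samples it measured 3.54, 3.44, 3.42 and 3.53 in CB and 4.24, 4.39, 4.27 and 4.04 in Ps. All Ps samples of *Snx2* were above all CB samples, the lowest being HBB CB replicate 4. Its log2(FC) was 0.79 ± 0.10 in HBB (chromosome 18, 53176316 to 53220865; adjusted p = 4.31e-06) and 0.75 ± 0.10 in Pkp4 cUTR cells (adjusted p = 9.12e-06).

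*Snx1*, which can take the place of Snx2 in these dimers, behaved otherwise. *Snx1* had 6.42, 6.51, 6.35 and 6.36 log2 CPM in CB of HBB cells and 6.51, 6.44, 6.47 and 6.40 in their Ps. The Pkp4 cUTR samples had 6.62, 6.60, 6.47 and 6.39 in CB and 6.49, 6.42, 6.38 and 6.40 in Ps. The groups overlapped in both lines. The log2(FC) of *Snx1* (chromosome 9, 66088133 to 66126587) was 0.05 ± 0.06 in HBB, with a 95% interval from −0.09 to 0.18, and −0.10 ± 0.06 in Pkp4 cUTR cells, with one from −0.23 to 0.04. Neither was called, and with libraries scaled by total reads the values were −0.19 and −0.36, both past the threshold.

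Both partner subunits were higher in Ps. The 4 HBB CB samples of *Snx5* were at 6.27, 6.29, 6.14 and 6.13 log2 CPM and the Ps samples at 6.88, 7.04, 6.99 and 6.87. Those of the Pkp4 cUTR line were at 6.45, 6.24, 6.21 and 6.57 in CB and 7.01, 7.11, 7.17 and 7.06 in Ps. *Snx5* (chromosome 2, 144250123 to 144270906) was above CB in every Ps sample, with a log2(FC) of 0.74 ± 0.08 in HBB (adjusted p = 5.32e-07) and 0.72 ± 0.08 in Pkp4 cUTR cells (adjusted p = 9.25e-07). Levels of *Snx6* were 4.66, 4.57, 4.37 and 4.27 log2 CPM in HBB CB and 5.09, 5.36, 5.10 and 5.22 in HBB Ps. For the Pkp4 cUTR line they were 4.68, 4.65, 4.43 and 4.68 in CB and 5.27, 5.28, 5.19 and 5.35 in Ps. *Snx6* (chromosome 12, 54746349 to 54795703) likewise showed no overlap, with 0.73 ± 0.09 in HBB (adjusted p = 2.88e-06) and 0.66 ± 0.09 in Pkp4 cUTR cells (adjusted p = 8.66e-06).

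On the other side were *Snx33*, which like *Snx9* and *Snx18* carries an SH3 domain and acts at the plasma membrane, and *Snx30*, a relative of *Snx7*. In HBB cells *Snx33* measured 5.50, 5.63, 5.67 and 5.63 log2 CPM in CB and 4.85, 4.83, 4.96 and 5.05 in Ps. In Pkp4 cUTR samples it measured 5.24, 5.47, 5.65 and 5.17 in CB and 4.77, 4.60, 4.65 and 5.06 in Ps. Ps samples of *Snx33* (chromosome 9, 56917193 to 56928371) lay below all CB samples, and log2(FC) was −0.68 ± 0.11 in HBB (adjusted p = 2.88e-05) and −0.61 ± 0.11 in Pkp4 cUTR cells (adjusted p = 0.000116). *Snx30* had 3.82, 3.89, 3.90 and 3.45 log2 CPM in CB of HBB cells and 3.30, 3.15, 3.29 and 3.24 in their Ps. The Pkp4 cUTR samples had 4.02, 4.01, 4.15 and 3.84 in CB and 3.46, 3.50, 3.42 and 3.43 in Ps. Ps was again below CB without overlap for *Snx30* (chromosome 4, 59805840 to 59904737), at −0.53 ± 0.10 (adjusted p = 0.000258) and −0.55 ± 0.10 (adjusted p = 0.000144). *Snx18* was lower at −0.34 ± 0.13 and −0.40 ± 0.13, with adjusted p = 0.0345 and 0.0128. Its groups overlapped, and its HBB call was lost when any of 5 HBB samples was left out and its other call without Pkp4 cUTR CB replicate 2 or Ps replicate 3.

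The sorting nexins of the RGS-domain group bridge the endoplasmic reticulum and other organelles and take part in lipid handling. *Snx19* is placed in this group as a relative, although it lacks the RGS domain itself. Of the 4 measured, *Snx13* was higher in Ps of both lines, *Snx14* and *Snx19* were lower in both and *Snx25* was called in neither. The 4 HBB CB samples of *Snx19* were at 5.19, 5.22, 5.25 and 5.10 log2 CPM and the Ps samples at 4.33, 4.45, 4.18 and 4.52. Those of the Pkp4 cUTR line were at 4.92, 5.21, 5.10 and 4.99 in CB and 4.32, 4.47, 4.16 and 4.38 in Ps. *Snx19* (chromosome 9, 30427108 to 30466733) was below CB in all Ps samples, and was the member with the largest decrease, at −0.82 ± 0.09 in HBB (adjusted p = 4.28e-07) and −0.72 ± 0.09 in Pkp4 cUTR cells (adjusted p = 2.58e-06).

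Levels of *Snx13* were 2.11, 1.68, 1.75 and 1.54 log2 CPM in HBB CB and 2.37, 2.59, 2.09 and 2.33 in HBB Ps. For the Pkp4 cUTR line they were 1.99, 1.39, 1.74 and 1.74 in CB and 2.19, 2.62, 2.33 and 2.50 in Ps. These were low levels. HBB CB replicate 1 overlapped the HBB Ps samples, and the groups of the other line did not overlap. *Snx13* (chromosome 12, 35047186 to 35147479) had a log2(FC) of 0.57 ± 0.15 in HBB (adjusted p = 0.00392) and 0.68 ± 0.15 in Pkp4 cUTR cells (adjusted p = 0.00117). With libraries scaled by total reads the HBB value was 0.33 and was not called. In HBB cells *Snx14* measured 3.51, 3.63, 3.23 and 3.28 log2 CPM in CB and 2.92, 3.26, 2.77 and 2.88 in Ps. In Pkp4 cUTR samples it measured 3.54, 3.40, 3.22 and 3.44 in CB and 3.07, 3.16, 2.74 and 3.04 in Ps. For *Snx14* (chromosome 9, 88376750 to 88438958) the HBB groups overlapped by HBB Ps replicate 2 and the Pkp4 cUTR groups did not. Its log2(FC) was −0.45 ± 0.12 (adjusted p = 0.00446) and −0.40 ± 0.13 (adjusted p = 0.0119), and the second call was lost without Pkp4 cUTR Ps replicate 3 (adjusted p = 0.0550). Of the exons of *Snx14*, 8.9% overlap another gene on the same strand, whose reads the counting may have shared.

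Of the 9 other PX-domain sorting nexins, *Snx3*, *Snx10* and *Snx12* were higher in Ps of both lines, *Snx11* was lower in both, *Snx16* was higher in Pkp4 cUTR cells only, and *Snx15*, *Snx21*, *Snx24* and *Snx29* were called in neither. *Snx3* recruits retromer to early endosomes, and *Snx12* is its close relative. *Snx12* had 5.58, 5.64, 5.51 and 5.50 log2 CPM in CB of HBB cells and 6.25, 6.12, 6.26 and 6.05 in their Ps. The Pkp4 cUTR samples had 5.61, 5.60, 5.63 and 5.56 in CB and 6.25, 6.08, 6.13 and 6.18 in Ps. All Ps samples of *Snx12* (chromosome X, 101097786 to 101222563) were above all CB samples, with a log2(FC) of 0.62 ± 0.06 (adjusted p = 3.77e-07) and 0.56 ± 0.06 (adjusted p = 1.37e-06). *Snx3* had smaller changes of 0.32 ± 0.07 and 0.22 ± 0.07 (adjusted p = 0.000919 and 0.0129). With libraries scaled by total reads they were 0.08 and −0.04, neither called. The 2 measured FERM-domain sorting nexins are cargo adaptors, and neither was higher in Ps. *Snx17* was called in neither line and *Snx27* was lower in Pkp4 cUTR cells only (−0.26 ± 0.10, adjusted p = 0.0412).

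Of 8 HOPS, CORVET and Vps33b genes, 6 were lower in Ps of HBB cells and 3 in Pkp4 cUTR cells, against 28.9% and 28.5% of all RNAs. The median log2(FC) of the 8 was −0.38 and −0.33. The class C core genes *Vps11*, *Vps16* and *Vps18*, shared by HOPS and CORVET, were lower in both lines, and *Vps33a*, also of the core, was called in neither. *Vps8* (CORVET), *Vps39* (HOPS) and *Vps33b* were lower in HBB cells only. The call of *Vps33b* was lost without precision weights (adjusted p = 0.0666) and without any of 8 single samples. *Vps41*, particular to HOPS like *Vps39*, was the single tether gene of this group that was higher, and it was so in both lines. The 4 HBB CB samples of *Vps41* were at 4.19, 4.15, 4.03 and 3.92 log2 CPM and the Ps samples at 4.85, 4.93, 4.87 and 4.86. Those of the Pkp4 cUTR line were at 4.00, 4.08, 3.94 and 4.16 in CB and 5.06, 5.16, 4.95 and 4.92 in Ps. Ps samples were above CB samples throughout. *Vps41* (chromosome 13, 18717286 to 18866811) had a log2(FC) of 0.80 ± 0.08 in HBB (adjusted p = 1.82e-07) and 0.98 ± 0.08 in Pkp4 cUTR cells (adjusted p = 3.50e-08), second only to *Vps35* among the members.

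Levels of *Vps18* were 6.30, 6.25, 6.60 and 6.36 log2 CPM in HBB CB and 5.67, 5.55, 5.70 and 5.77 in HBB Ps. For the Pkp4 cUTR line they were 6.15, 6.24, 6.49 and 6.18 in CB and 5.54, 5.47, 5.59 and 5.62 in Ps. Here all Ps samples were below all CB samples. *Vps18* (chromosome 2, 119288740 to 119298453), whose product carries the RING domain of the core together with that of Vps11, had a log2(FC) of −0.70 ± 0.09 in HBB (adjusted p = 2.45e-06) and −0.71 ± 0.09 in Pkp4 cUTR cells (adjusted p = 2.98e-06). *Vps16* and *Vps11* followed with −0.45 ± 0.06 and −0.40 ± 0.08 in HBB and −0.36 ± 0.06 and −0.35 ± 0.08 in Pkp4 cUTR cells, also without overlap of the groups.

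In the GARP and EARP tethers, *Vps51* and *Vps52* were lower in Ps of both lines, *Vps53* was called in neither, and *Vps54*, the subunit found in GARP alone, was higher in Pkp4 cUTR cells only (0.43 ± 0.11, adjusted p = 0.00222). In HBB cells *Vps52* measured 7.19, 7.17, 7.29 and 7.16 log2 CPM in CB and 6.84, 6.68, 6.70 and 6.79 in Ps. In Pkp4 cUTR samples it measured 7.09, 7.10, 7.15 and 6.88 in CB and 6.75, 6.62, 6.68 and 6.71 in Ps. The Ps samples of *Vps52* (chromosome 17, 33955812 to 33967035) were below all CB samples, although Pkp4 cUTR CB replicate 4 came near, and log2(FC) was −0.45 ± 0.07 (adjusted p = 1.86e-05) and −0.37 ± 0.07 (adjusted p = 0.000166). *Vps51* had −0.31 ± 0.07 and −0.29 ± 0.07, and 18% of its exons overlap another gene on the same strand.

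In ESCRT-III, which forms the filaments that cut the membrane neck, 4 of 8 members were higher in Ps of both lines (*Chmp2a*, *Chmp3*, *Chmp4b* and *Chmp5*). *Chmp6* was higher in HBB cells only and 0 were lower. Of all RNAs 24.1% were higher in both lines, and 28.9% and 28.5% were lower in HBB and Pkp4 cUTR cells. With the correction for transcript GC content *Chmp2b* was called lower in Pkp4 cUTR cells (−0.35, adjusted p = 0.0101). The median of the 8 was 0.27 in HBB and 0.29 in Pkp4 cUTR cells. *Chmp5*, which binds the Vps4 cofactor Vta1, changed by 0.58 ± 0.08 and 0.48 ± 0.08, and *Chmp4b*, the main filament subunit, by 0.45 ± 0.08 and 0.47 ± 0.08. For *Chmp3* the values were 0.52 ± 0.06 and 0.45 ± 0.06. In these 3 genes Ps and CB did not overlap in either line. *Chmp2a* had 0.35 ± 0.12 and 0.44 ± 0.12, and its HBB call was lost without HBB CB replicate 2 or HBB Ps replicate 1. With libraries scaled by total reads it had 0.11 and 0.17 and was called in neither line. The same scaling turned the sign of *Chmp6* in HBB cells (−0.05, not called), and this call was also lost without any of 11 single samples. Of the 2 Vps4 ATPases that take the filaments apart, *Vps4b* was higher in HBB cells only (0.32 ± 0.12, adjusted p = 0.0256) and *Vps4a* was called in neither line (0.08 ± 0.06 and 0.05 ± 0.06).

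ESCRT-I and ESCRT-II, which act before ESCRT-III, each had a member on either side. ESCRT-I holds 1 of the alternative Vps37 subunits. *Vps37a* was higher in Ps of both lines, at 0.47 ± 0.11 and 0.37 ± 0.11 (adjusted p = 0.00174 and 0.00939), and lost its calls with libraries scaled by total reads (0.23 and 0.11). *Vps37c* was lower in both, and *Vps37b* and *Vps37d* were called in neither. *Vps37c* had 6.45, 6.51, 6.68 and 6.58 log2 CPM in CB of HBB cells and 6.06, 5.96, 6.06 and 6.17 in their Ps. The Pkp4 cUTR samples had 6.25, 6.41, 6.51 and 6.10 in CB and 5.83, 5.65, 5.66 and 5.90 in Ps. No Ps sample of *Vps37c* (chromosome 19, 10688735 to 10714627) reached a CB sample of its line. Its log2(FC) was −0.49 ± 0.09 (adjusted p = 0.000112) and −0.56 ± 0.09 (adjusted p = 4.13e-05).

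In ESCRT-II, Vps36 is the subunit that binds ubiquitin and phosphoinositides, and Vps25 links the complex to ESCRT-III. The 4 HBB CB samples of *Vps36* were at 4.33, 4.41, 4.19 and 4.44 log2 CPM and the Ps samples at 4.92, 4.92, 4.98 and 4.81. Those of the Pkp4 cUTR line were at 4.86, 4.63, 4.45 and 4.85 in CB and 5.14, 5.35, 5.45 and 5.08 in Ps. *Vps36* (chromosome 8, 22192809 to 22220843) was above CB in every Ps sample, at 0.57 ± 0.10 (adjusted p = 0.000126) and 0.56 ± 0.10 (adjusted p = 0.000126). Levels of *Vps25* were 0.07, 0.65, 0.46 and 0.60 log2 CPM in HBB CB and −0.71, −0.07, −0.25 and −0.43 in HBB Ps. For the Pkp4 cUTR line they were 0.29, 0.50, 0.80 and −0.22 in CB and −0.30, −0.14, −0.02 and −0.89 in Ps. *Vps25* (chromosome 11, 101253707 to 101259549) was the member with the fewest reads. Ps was below CB without overlap in HBB cells, while in Pkp4 cUTR cells CB replicate 4 fell among the Ps samples. Its log2(FC) was −0.81 ± 0.26 (adjusted p = 0.0125) and −0.70 ± 0.26 (adjusted p = 0.0298). The first call was lost without HBB Ps replicate 1, and the second without Pkp4 cUTR CB replicate 2 or 3 or Pkp4 cUTR Ps replicate 1 or 4. Of its exons, 67.2% overlap *Ramp2* on the same strand, so its value is uncertain.

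The remaining Vps names were the Vps13 lipid transfer proteins and 3 others. *Vps13d* was lower in Ps of both lines (−0.37 ± 0.10 and −0.37 ± 0.11), *Vps13c* in HBB cells only (−0.46 ± 0.18), and *Vps13a* and *Vps13b* in neither. *Vps9d1*, which carries a VPS9 domain, was lower in both (−0.33 ± 0.07 and −0.20 ± 0.07), with the second call lost when any of 5 Pkp4 cUTR samples was left out. *Vps45*, which acts in SNARE-mediated fusion, and *Vps72*, a subunit of chromatin remodelling complexes that shares only the name, were called in neither line.

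**Figure D3:**
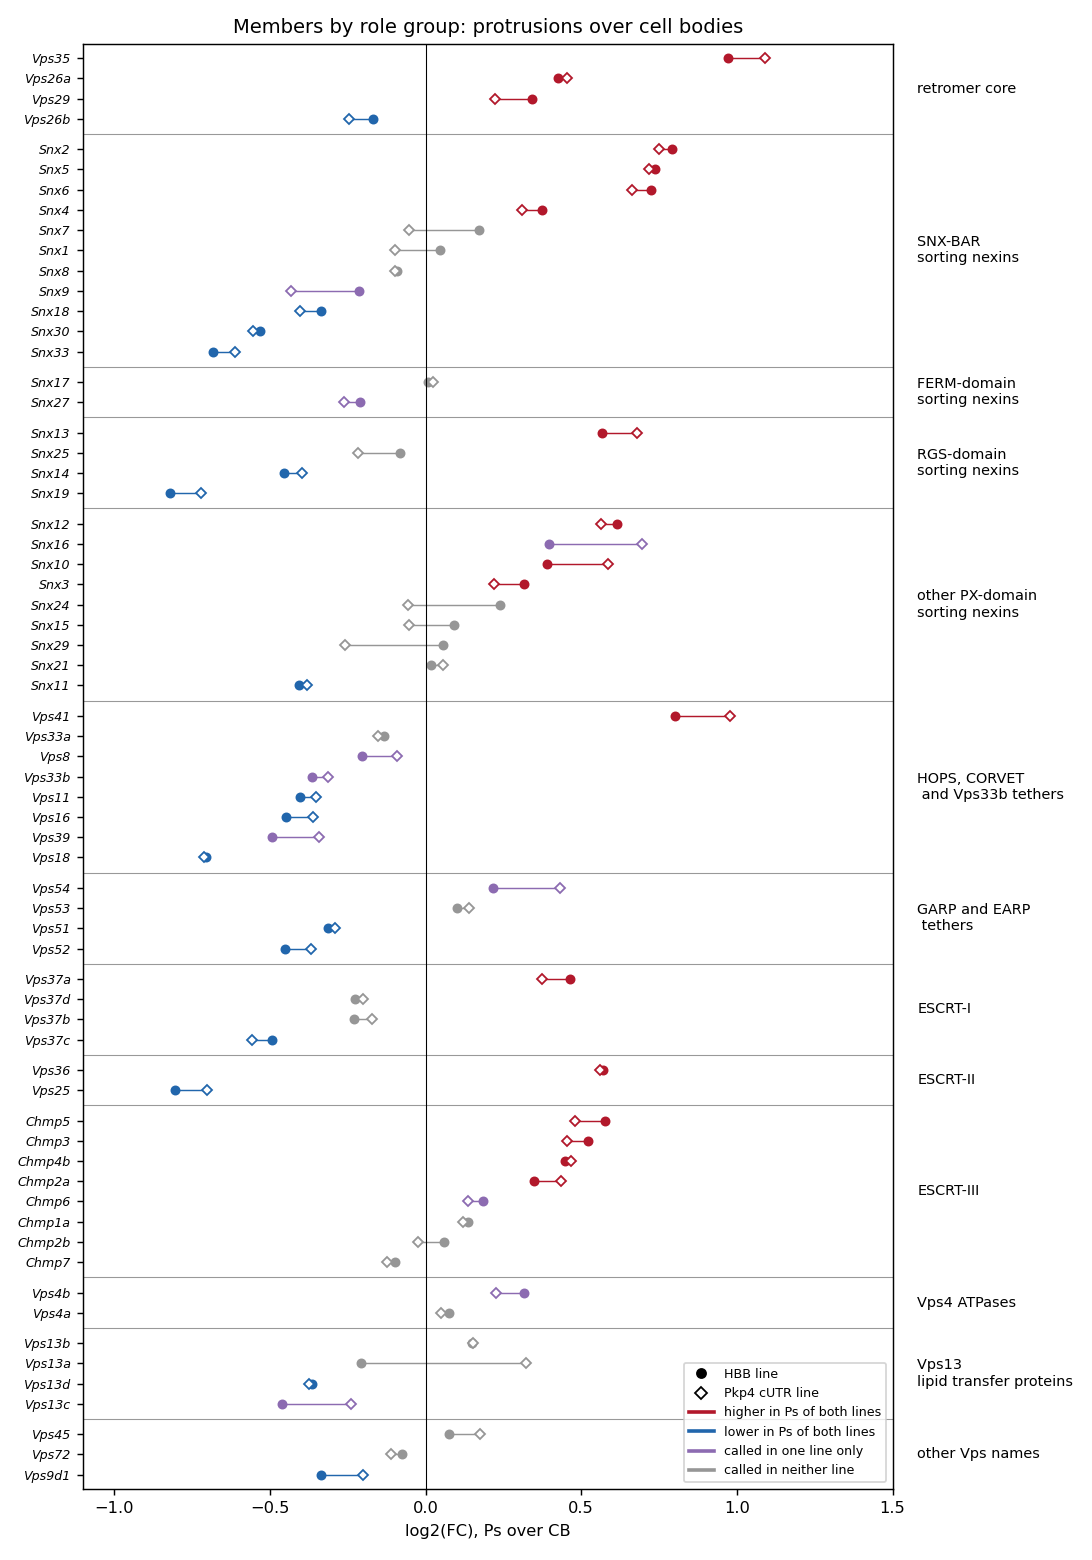
All 65 members in their role groups, with log2(FC) of Ps over CB on the horizontal axis (filled circles, HBB line; open diamonds, Pkp4 cUTR line) and colour for the call. Retromer, SNX-BAR, RGS-domain, other PX-domain, ESCRT-I and ESCRT-II genes were called on both sides of 0, and *Vps41* (0.80 and 0.98) lies above the other tethers. ESCRT-III genes also lie on both sides of 0 (−0.10 to 0.58 in HBB, −0.12 to 0.48 in Pkp4 cUTR cells). Of these, 4 of 8 were called higher in both lines and 0 lower. Among the members called in a line, *Chmp6* in HBB and *Snx3* and *Vps29* in Pkp4 cUTR cells turned sign with libraries scaled by total reads.

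A ratio of 2 RNAs within a sample does not depend on how libraries are scaled. The pairs given here were chosen after their values were seen and are a description. The log2 ratio of *Vps26a* to *Vps26b* was −1.23 to −1.03 in CB and −0.66 to −0.34 in Ps of HBB cells, and −1.45 to −0.87 in CB and −0.63 to −0.35 in Ps of Pkp4 cUTR cells. The mean difference between Ps and CB was 0.59 in HBB and 0.70 in Pkp4 cUTR cells. For *Snx2* over *Snx1* the ratio was −3.29 to −2.81 in CB and −2.35 to −2.18 in Ps of HBB cells, and −3.15 to −2.86 in CB and −2.37 to −2.03 in Ps of Pkp4 cUTR cells, and Ps and CB differed by 0.76 in HBB and 0.85 in Pkp4 cUTR cells. Both pairs encode alternatives for 1 place in a complex, and in both the ratio was higher in all Ps samples than in all CB samples of its line. *Vps41* over *Vps18*, which are found together in HOPS, had a ratio of −2.57 to −2.10 in CB and −0.92 to −0.62 in Ps of HBB cells, and −2.55 to −2.02 in CB and −0.70 to −0.31 in Ps of Pkp4 cUTR cells. That is a difference of 1.51 in HBB and 1.69 in Pkp4 cUTR cells. For *Vps37a* over *Vps37c* the ratio was −4.15 to −3.76 in CB and −2.99 to −2.95 in Ps of HBB cells, and −4.04 to −3.10 in CB and −2.95 to −2.50 in Ps of Pkp4 cUTR cells, differing by 0.97 in HBB and 0.93 in Pkp4 cUTR cells. These ratios, too, had no overlap between Ps and CB in either line. In each pair the first gene had the lower GC content. It was 41.9% against 51.5% for *Vps26a* and *Vps26b* and 42.8% against 50.3% for *Snx2* and *Snx1*. For *Vps41* and *Vps18* it was 44.7% against 58.0%, and for *Vps37a* and *Vps37c* 39.8% against 57.8%. With the GC correction described below *Vps26a*, *Vps26b* and *Vps37a* were called in neither line, while *Snx2*, *Vps41*, *Vps18* and *Vps37c* kept their calls. The ratios were not corrected for GC content.

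Levels between genes were compared as CPM per kilobase of annotated exon, a scale that assumes reads along the whole exonic length. Here *Chmp4b* (143, 195, 140 and 194), *Snx3* (145, 180, 151 and 177) and *Chmp2a* (93.5, 119, 102 and 139) were the most abundant members, in CPM per kilobase in HBB CB, HBB Ps, Pkp4 cUTR CB and Pkp4 cUTR Ps in this order. *Vps13a* was the least abundant (0.14, 0.11, 0.11 and 0.13). Among the retromer subunits *Vps26a* had 12, 16.2, 12.9 and 17.5, *Vps26b* 14.9, 13.3, 16.1 and 13.6, *Vps29* 8.92, 11.3, 9.40 and 11.0 and *Vps35* 2.46, 4.82, 2.46 and 5.21. On this scale *Vps26a* was below *Vps26b* in CB and above it in Ps of both lines. The exonic lengths were 2860 bases for *Vps26a* and 5099 for *Vps26b*, and those of the coding transcripts used 2597 and 3575. Before division by length *Vps26a* was below *Vps26b* in every sample. The log2 ratio in Ps was −0.66 to −0.34 in HBB and −0.63 to −0.35 in Pkp4 cUTR cells. The order in Ps thus depends on the length used. The SDs of the 4 samples of a group were 0.12, 1.31, 1.60 and 0.92 for *Vps26a* and 0.82, 0.37, 1.17 and 0.94 for *Vps26b*, in the same order.

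The next comparison asked whether the distribution of these RNAs differed between the lines, as log2(Diff FC), the log2(FC) of Ps over CB in Pkp4 cUTR cells minus that in HBB cells. At an adjusted p under 0.05 this held for 0 members and 0% of all RNAs, and at an unadjusted p under 0.05 for 0 members and 2.33% of all RNAs. Members ranged from −0.31 to 0.53, with a median of −0.01 and a median SE of 0.128. For a single RNA, a difference near the size of its SE could not be told from 0 at this number of samples, and larger ones also went uncalled. *Pkp4*, whose 3′UTR the construct carries, had −1.12 ± 0.28 (unadjusted p = 0.000875, adjusted p = 0.9997 in limma). The lack of a call therefore does not show that a member was distributed alike in both lines. The members nearest to a call in limma were *Snx7* (−0.22 ± 0.14, 95% interval from −0.51 to 0.06), *Vps41* (0.18 ± 0.11, from −0.05 to 0.41) and *Snx1* (−0.14 ± 0.09, from −0.34 to 0.05), and each of these intervals includes 0. For *Vps35* the difference was 0.12 ± 0.12, with an interval from −0.14 to 0.38. The 10 members called in 1 line only are thus not shown to differ between the lines. *Vps13a* had the largest value, 0.53 ± 0.35, with an interval from −0.21 to 1.27.

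Levels were then compared between the lines within each fraction. In CB, 4 members (6.15%) were higher in Pkp4 cUTR than in HBB cells at an adjusted p under 0.05, against 3.42% of all RNAs, and 0 were lower, against 5.55%. In Ps, 2 members (3.08%) were higher, against 2.89%, and 1 (1.54%) was lower, against 4.26%. With so few members these shares are near those of all RNAs. The 4 were *Snx7*, *Chmp2b*, *Snx10* and *Vps36* in CB, and in Ps *Snx10* and *Vps36* were higher and *Vps37c* lower.

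*Snx10*, a sorting nexin needed for bone resorption by osteoclasts, was higher in both fractions of the Pkp4 cUTR line. In HBB cells *Snx10* measured 3.18, 3.15, 2.91 and 3.19 log2 CPM in CB and 3.36, 3.66, 3.45 and 3.48 in Ps. In Pkp4 cUTR samples it measured 3.52, 3.41, 3.31 and 3.80 in CB and 4.00, 4.16, 4.05 and 4.17 in Ps. Within each fraction the Pkp4 cUTR samples were all above the HBB samples, and in each line Ps was above CB (chromosome 6, 51523901 to 51590679). The log2 fold change between the lines was 0.41 ± 0.11 in CB (adjusted p = 0.0203) and 0.61 ± 0.11 in Ps (adjusted p = 0.00155). The difference in CB was not called without HBB CB replicate 3 (0.34, adjusted p = 0.0914), without Pkp4 cUTR CB replicate 1 or 4, without both CB samples numbered 4 (adjusted p = 0.0627), or with libraries scaled by total reads (adjusted p = 0.0598). The Ps over CB change of *Snx10* was 0.39 ± 0.11 in HBB (adjusted p = 0.00571) and 0.59 ± 0.10 in Pkp4 cUTR cells (adjusted p = 0.000101), and the first was not called with libraries scaled by total reads (0.15).

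*Vps36*, whose values are given above, was also higher in all Pkp4 cUTR samples than in all HBB samples of the same fraction, by 0.36 ± 0.10 in CB (adjusted p = 0.0318) and 0.35 ± 0.10 in Ps (adjusted p = 0.0415). Both calls were near the threshold. The first was lost without any of 4 CB samples (HBB replicates 1 and 3, Pkp4 cUTR replicates 1 and 4), without both CB samples numbered 4, and with median centring, quantile normalization or a correction for transcript GC content. The second was lost without any HBB Ps sample, without Pkp4 cUTR Ps replicate 2 or 3, without HBB CB replicate 1 or 2, with libraries scaled by total reads (adjusted p = 0.0589), with median centring (adjusted p = 0.0591) and with the GC correction (adjusted p = 0.0665).

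*Snx7* had 3.12, 3.22, 3.34 and 3.30 log2 CPM in CB of HBB cells and 3.37, 3.49, 3.32 and 3.48 in their Ps. The Pkp4 cUTR samples had 3.63, 3.67, 3.51 and 3.82 in CB and 3.57, 3.58, 3.43 and 3.83 in Ps. In CB all Pkp4 cUTR samples of *Snx7* (chromosome 3, 117781647 to 117868936) were above all HBB samples, whereas the Ps groups overlapped. The change was 0.41 ± 0.09 in CB (adjusted p = 0.00807), a call kept in every alternative except those that also asked for a minimum fold change, and 0.19 ± 0.10 in Ps (adjusted p = 0.280). The 4 HBB CB samples of *Chmp2b* were at 4.57, 4.76, 4.60 and 4.88 log2 CPM and the Ps samples at 4.72, 4.91, 4.61 and 4.79. Those of the Pkp4 cUTR line were at 4.99, 4.93, 5.06 and 5.53 in CB and 4.87, 5.07, 5.14 and 5.32 in Ps. *Chmp2b* (chromosome 16, 65539128 to 65562726), an ESCRT-III gene mutated in a form of frontotemporal dementia, was higher in all Pkp4 cUTR CB samples than in all HBB CB samples, with Pkp4 cUTR CB replicate 4 the highest. It differed by 0.42 ± 0.12 in CB (adjusted p = 0.0319) and 0.34 ± 0.12 in Ps (adjusted p = 0.109). Without Pkp4 cUTR CB replicate 4 the value in CB was 0.29 (adjusted p = 0.0890), and the call was also lost without HBB CB replicate 1, 2 or 3, with libraries scaled by total reads (adjusted p = 0.0742) and with quantile normalization (adjusted p = 0.0563). *Vps37c* was lower in all Pkp4 cUTR Ps samples than in all HBB Ps samples, by −0.30 ± 0.09 (adjusted p = 0.0477), and this call was lost without any of 12 single samples, in 2 of them as far as an adjusted p of 0.140 and 0.143 (HBB Ps replicate 4 and Pkp4 cUTR Ps replicate 2). It was also lost with libraries scaled by total reads (adjusted p = 0.0572).

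Samples of the lines that share a number deviated in common, and with this number as a block shared by the lines more members were called. In CB, *Snx7*, *Chmp2b*, *Snx10* and *Vps36* were joined by *Snx18* (0.25, adjusted p = 0.0403), 5 in all, against 4.70% of all RNAs, and *Vps37b* was lower (−0.28, adjusted p = 0.010), against 6.51%. In Ps, 4 members were higher, against 4.47% of all RNAs, with *Chmp2b* (0.35, adjusted p = 0.0265) and *Vps54* (0.36, adjusted p = 0.0447) beside *Snx10* and *Vps36*. The 2 lower ones, against 5.87%, were *Vps37b* (−0.22, adjusted p = 0.0398) and *Vps37c*. Of the exons of *Vps37b*, 42.5% overlap genes on the other strand, and the setting of the strand in the counting is not given in the sources used here. *Snx18*, *Vps37b* and *Vps54* fall outside the rule for named genes and were chosen after their values were seen.

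**Figure D4:**
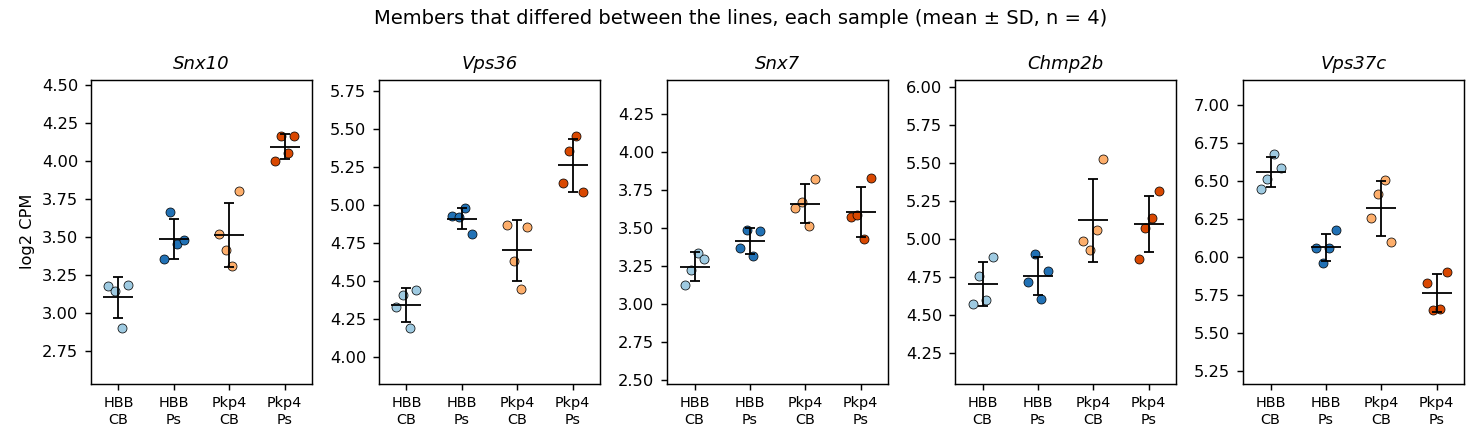
Log2 CPM of the 5 members called between the lines in CB or in Ps, in each of the 16 samples, with the mean and SD of the 4 samples of a group, each panel spanning 2 log2 units. *Snx10* and *Vps36* were higher in the Pkp4 cUTR line in both fractions, *Snx7* and *Chmp2b* were called higher in CB, and *Vps37c* was called lower in Ps.

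The members on either side differed in their transcripts. The 18 higher in Ps of both lines had a median GC content of 43.9% and a median coding length of 1070 bases, and the 16 lower in both had 53.4% and 2058 bases. The 21 called in neither line had 51.6% and 1311 bases, and all RNAs with a coding transcript 50.8% and 1368 bases. The median length of the 3′UTR was 1264 bases in the 18 and 1094 in the 16. Across the 65 members, Spearman's rho between GC content and the mean log2(FC) of the lines was −0.53, and across 11339 RNAs it was −0.40. For coding length it was −0.34 and −0.32, and for the length of the 3′UTR 0.03 and −0.08. These are descriptions across genes, which share their libraries and are not independent replicates.

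Since GC content moved with the result in all RNAs, the trend of each sample with GC was removed in a fit chosen after the data were seen. In it 12 of the 18 members remained higher and 10 of the 16 remained lower in both lines. Other members gained a call, so that 18 were higher and 11 lower in both lines, against 23.5% and 24.0% of the RNAs in this fit. *Vps35*, *Vps41*, *Snx2*, *Snx5*, *Snx6*, *Snx12*, *Vps36* and the 4 Chmp genes were among those that remained higher, and *Snx19*, *Vps18*, *Snx33*, *Snx30*, *Vps37c*, *Snx14* and *Vps52* among those that remained lower. Calls were lost for *Vps26a* (0.05 and 0.03), *Vps29* (0.03 and −0.13), *Snx13* (0.10 and 0.15), *Snx10*, *Snx4* and *Vps37a* on the one side and for *Vps26b* (−0.06 and −0.13), *Vps25*, *Vps51*, *Snx11*, *Snx18* and *Vps9d1* on the other, in at least 1 line each. Whether the GC trend is technical or a property of the RNAs was not tested.

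**Figure D5:**
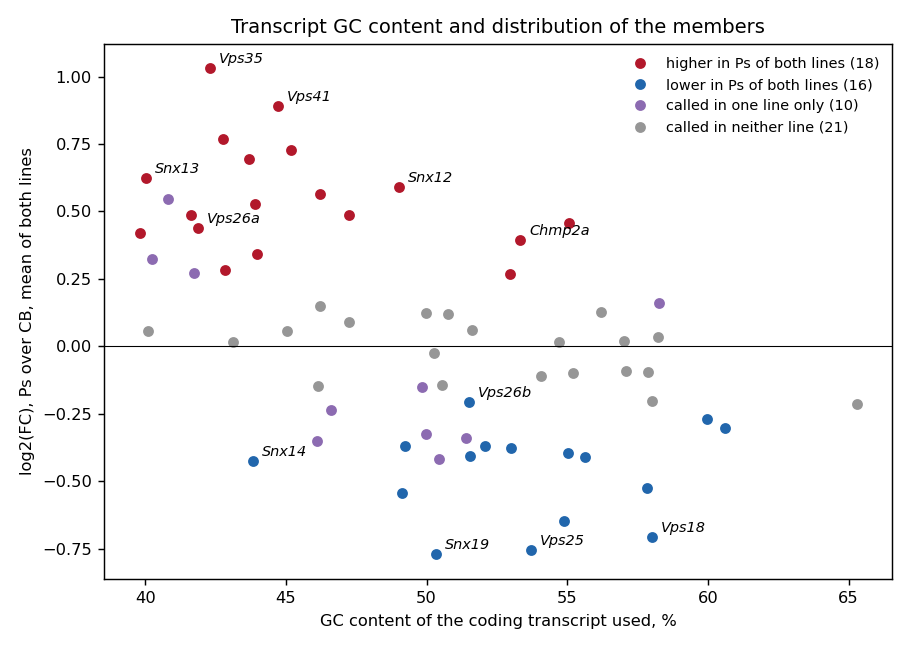
GC content of the coding transcript used for each of the 65 members against the mean log2(FC) of Ps over CB in both lines, coloured by call. The 18 members higher in Ps of both lines had a median of 43.9% and the 16 lower in both one of 53.4%, with *Chmp2a* and *Snx14* among those lying against the trend.

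Other genes of the pathway were taken from a list of 52 that do not bear these names, of which 49 were measured. In HBB cells 19 were higher and 9 lower in Ps, and in Pkp4 cUTR cells 19 and 7, with 17 higher and 7 lower in both lines, or 34.7% and 14.3% of those measured against 24.1% and 25.3% of all RNAs. The WASH and Commander genes build actin on endosomes and recycle cargo with retromer and Snx17. Of these, 9 of 19 were higher and 0 lower in each line, with 8 higher in both. Of all RNAs, 28.3% and 28.2% were higher and 28.9% and 28.5% lower in HBB and Pkp4 cUTR cells. The pathway genes were not refitted with libraries scaled by total reads. Whether their counts hold with that scaling was not tested. ESCRT genes with other names had 4 of 14 higher in both lines, among them *Snf8*, the remaining ESCRT-II subunit, at 0.59 ± 0.12 and 0.67 ± 0.12, and *Vta1*. The tethers and the PI3-kinase Vps34 complex had 5 of 14 higher and 4 lower, and both measured mannose 6-phosphate receptors, *Igf2r* and *M6pr*, were lower in both lines.

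The 3 highest of these were *Eea1* (1.02 ± 0.14 and 1.35 ± 0.14), the tether of early endosomes, *Rabep1* (0.96 ± 0.10 and 1.15 ± 0.10), a Rab5 effector, and the Commander gene *Commd6* (0.86 ± 0.13 and 0.86 ± 0.13). The 3 lowest were *Ptpn23* (−1.01 ± 0.11 and −0.88 ± 0.11), a partner of ESCRT in cargo sorting, *Pik3r4* (−0.81 ± 0.10 and −0.80 ± 0.10), the Vps15 subunit of the PI3-kinase, and *Igf2r* (−0.73 ± 0.18 and −0.70 ± 0.18). Ps and CB did not overlap in either line for the first 5, and did for *Igf2r*. *Ccdc132*, which is Vps50 of EARP, was higher in both lines at 0.52 ± 0.17 and 0.66 ± 0.16, while *Vps51* and *Vps52* of the same complex were lower. Between the lines, log2(Diff FC) called 0 of the 49, and in Ps *Fam21* of the WASH complex was higher in Pkp4 cUTR cells (0.26 ± 0.07, adjusted p = 0.0297) and *Pik3c3*, the catalytic PI3-kinase subunit, was lower (−0.44 ± 0.11, adjusted p = 0.0166).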

How the data were processed

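RNA from protrusions and cell bodies of the HBB and Pkp4 cUTR lines was sequenced from stranded libraries, with 4 replicates a group. Per the study's methods and the submitters' processing notes, the authors aligned reads to mm10 with STAR (2.4.2a), obtained gene counts with Rsubread, applied limma-voom (limma 3.26.1) and kept RNAs above an expression cutoff. They deposited log2 CPM for 12900 RNAs, in which a gene's reads plus 0.5 were divided by the scaled size of the library plus 1, per 1000000 reads. How reads of overlapping genes were divided, and the strand setting, are not given in the sources used here. The scaled sizes were 0.83 to 1.11 times the reads of a library, and the method behind them is likewise not given.

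The reads behind each value were recovered from steps of 1 read, and 100% came out whole within 0.01. They entered limma-voom (limma 3.58.1, R 4.3.3) with the authors' scaled library sizes, precision weights, all 16 samples and 1 mean per group. Contrasts were Ps over CB in each line, their difference, and Pkp4 cUTR over HBB in each fraction. Calls were made at an adjusted p under 0.05 (Benjamini-Hochberg over all RNAs). The precision behind a value is given by its SE. Members were found by name. The members, role groups and other lists, and the rules for naming, were chosen with earlier results of these data known. Named with their samples were the retromer subunits with *Snx1*, *Snx2*, *Snx5* and *Snx6*, the 8 highest and 8 lowest members called in both lines by mean log2(FC), the 3 with the smallest p of log2(Diff FC), and up to 5 a direction called between the lines in each fraction. For the other pathway genes the 3 highest and 3 lowest called in both lines were named.

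Samples were grouped by their labels. The replicate numbers of the labels were checked for pairing by the correlation, across 10154 RNAs, of deviations from the group means. Between the lines every same-numbered pair exceeded 0.1 (0.331 to 0.628 for CB, 0.196 to 0.392 for Ps), so that blocked values are given for the comparisons of the lines. Between Ps and CB of a line they did not (0.0455 to 0.389 in HBB, −0.362 to 0.00248 in Pkp4 cUTR). Positions, transcript length and GC content came from GENCODE annotation of GRCm38, the assembly of mm10. All 65 members were found in it by symbol, and 12744 RNAs by symbol or an older symbol. For each gene a principal coding transcript was used where one was marked, and otherwise another of its coding transcripts. The fits were tested on simulated counts, in which a small part of the RNAs was raised in HBB Ps alone and the library sizes were known. The simulated samples varied independently. That test therefore does not bear on the scaling of the libraries, or on deviations shared by same-numbered samples. Alternatives were other scalings, weights, pseudocount, filter, thresholds, replicate blocks, leaving out samples and, added after the data were seen, a GC correction.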

Additional observations from a re-analysis of the deposited data

Results flagged for a closer look

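In 4 of the 92 groups of 4 samples of the named members, 1 sample lay far from the other 3. Chance alone flags about 1 group in 20, which would be 4.6 of these. *Snx10* in HBB CB replicate 3 was at 2.91 log2 CPM, below the others at 3.15 to 3.19. *Snx6* in Pkp4 cUTR CB replicate 3 was at 4.43, below 4.65 to 4.68. *Vps29* in HBB Ps replicate 3 was at 6.28, above 6.06 to 6.07. *Vps35* in Pkp4 cUTR Ps replicate 2 was at 5.60, above 5.51 to 5.52. Of the calls of these genes, that of *Snx10* between the lines in CB was lost without the sample named, and the calls of *Snx6*, *Vps29* and *Vps35* between Ps and CB were not.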

How the results depend on the processing

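Of the values under the alternatives of members named with their samples or called in a line, 2343 kept their direction and their side of the threshold, 161 lost their call, 4 gained one and 21 turned sign. With libraries scaled by total reads, 10 members were higher and 32 lower in Ps of HBB cells, 12 and 35 in Pkp4 cUTR cells, and between the lines 2 were higher in CB, 1 higher and 0 lower in Ps. Among these values signs turned for *Chmp2b* (−0.18), *Snx1* (−0.19), *Snx7* (−0.0688) and *Chmp6* (−0.0529) in HBB and for *Snx3* (−0.0423) and *Vps29* (−0.0421) in Pkp4 cUTR cells. With the GC correction they turned for *Chmp2b* (−0.247), *Snx7* (−0.0164), *Snx10* (−0.00313), *Vps4b* (−0.0593) and *Vps37a* (−0.0179) in HBB and for *Vps29* (−0.13), *Vps37a* (−0.19), *Vps54* (−0.0982) and *Vps9d1* (0.00770) in Pkp4 cUTR cells, and 1 member was higher in Ps between the lines. *Chmp2b* in Pkp4 cUTR cells was called lower with the GC correction (−0.353, adjusted p = 0.0101). Its sign turned, without a call, with median centring (0.00270), quantile normalization (0.0534) and without both CB samples numbered 4 (0.105). It also turned, without a call, without Pkp4 cUTR CB replicate 4 (0.105) or Ps replicate 1 (0.0558), with −0.0969 to 0.105 without single samples. *Snx7* in Pkp4 cUTR cells turned without Pkp4 cUTR Ps replicate 3 (0.00435). It was called lower there with libraries scaled by total reads (−0.324, adjusted p = 0.0226) and with the GC correction (−0.246, adjusted p = 0.0294). A fold change above 2 at an unadjusted p under 0.05 left 0 higher and 0 lower members in HBB, 1 and 0 in Pkp4 cUTR cells, and between the lines 0 in CB and 0 and 0 in Ps. A fold change above 1.5 at the adjusted p left 6 and 4 in HBB, 8 and 4 in Pkp4 cUTR cells, 0 in CB, and 1 and 0 in Ps. Quantile normalization, and leaving out both CB samples numbered 4, each left 2 members higher in CB between the lines. With the replicate block shared by the lines, 1 member was lower in CB, and 4 were higher and 2 lower in Ps. The replicate block of each line, whose numbers are not shown to pair Ps with CB, gave 18 higher and 19 lower members in HBB and 20 and 17 in Pkp4 cUTR cells, and 3 of 8 HBB samples and 0 of 8 Pkp4 cUTR samples correlated best with their own number in the other fraction.

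Leaving out 1 sample at a time gave 18 to 20 higher and 16 to 21 lower members in HBB, 19 to 22 and 14 to 20 in Pkp4 cUTR cells, and between the lines 1 to 4 higher and 0 to 1 lower in CB and 1 to 3 higher and 0 to 2 lower in Ps. The lowest count in CB came without HBB CB replicate 3 or Pkp4 cUTR CB replicate 4. Of the 18 members higher in both lines 17 stayed so without any single sample (*Chmp2a* did not), and of the 16 lower ones 11 did. The count of adjusted calls of log2(Diff FC) was 0 in limma under all alternatives run, with 0 to 2 members at an unadjusted p under 0.05. The cause of these changes was not tested. Other pathway genes were not refitted.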
